A study of Mus musculus with 6 samples.

Results

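The nuclear genes for the subunits of respiratory complex I were described in single-cell RNA-Seq libraries of mouse islets, made to ask what the loss of 14-3-3ζ changes in β cells. Members were chosen by symbol alone, as the genes called *Ndufa*, *Ndufb*, *Ndufc*, *Ndufs* or *Ndufv* with a number, together with *Ndufab1*, and 39 of the 32285 genes counted met this rule. All mice were C57BL/6J and aged 12 to 14 weeks. In the 3 β14-3-3ζ–KO mice a Cre recombinase in the *Ins1* locus (Ins1-CreThor) deleted the floxed exon 4 of *Ywhaz*, the gene for 14-3-3ζ, in β cells, and the 3 WT mice were littermates that carried the Cre as well. Islets were left overnight, dispersed and cleared of dead cells, and 1 library was made per mouse, so the mouse is the replicate and cells of a library are not.

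Complex I takes electrons from NADH, passes them to ubiquinone and pumps protons across the inner mitochondrial membrane. Its catalytic core holds nuclear-encoded subunits in the matrix arm and subunits made from mitochondrial DNA in the membrane arm, and a larger number of accessory subunits, all of them nuclear, surround that core in both arms. In β cells the respiratory chain couples glucose metabolism to ATP production, closure of K-ATP channels and insulin release. By role, the 39 members were 7 core subunits, 9 accessory subunits of the matrix arm, 19 accessory subunits of the membrane arm, the mitochondrial acyl carrier protein *Ndufab1* and 3 others. The others were *Ndufa4*, which keeps its complex I name although its product is a subunit of complex IV, its paralogue *Ndufa4l2*, and *Ndufb1-ps*, which the annotation lists as a long noncoding RNA from a shared promoter.

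Cells were assigned to a class by the share of their UMIs from one hormone or by a marker list, without clustering, and each class name is meant as β-like, α-like and so on. The gates held 6563 β cells, 679 α cells, 435 δ cells, 276 PP cells, 1222 endothelial cells and 530 macrophages, which were compared, and stellate, B, T and ductal cells, which were not compared with β cells. Cells within 1.2-fold of a gate's cut numbered 594 of the β cells and 36 of the α cells. Of the endothelial cells, which were gated by markers, 18 had exactly the 3 markers required. Libraries held 4400 to 10722 barcodes and 74083947 to 98294915 UMIs, and any pair of libraries shared 0 to 3 gated barcodes. The median UMI count per cell was 30540 in β cells, 16808 in α cells, 10019 in endothelial cells and 12080.5 in macrophages. Insulin UMIs, which these other classes should lack, made up 0.703% to 3.68% of α cell UMIs and 0.941% to 5.44% of endothelial UMIs, in both cases lowest in WT library 1 and highest in KO library 2. The part of such free RNA in the subunit values was not tested.

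*Ywhaz* was measured first, as a check of the labels. Over all gated β cells it was at 261, 302 and 289 CPM outside the hormone genes in the WT libraries and at 40.6, 43.3 and 41.8 CPM in the KO libraries. A *Ywhaz* UMI was found in 91.9% of WT and in 42.4% of KO β cells. The assay counts the 3′ end of a transcript, so such a UMI does not show whether exon 4 was present. The study removed KO β cells in which the deletion of *Ywhaz* was incomplete. Here the comparison of genotypes in β cells used only those KO cells without any UMI of *Ywhaz*, and all β cells were kept elsewhere. WT cells were not chosen in this way, and fewer genes are detected in the KO cells kept. *Ndufa9*, for example, had a UMI in 52.5% of all KO β cells, in 47.0% of those kept and in 53.7% of WT β cells. The part of this choice in the genotype values was not tested.

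Levels are given as counts scaled to CPM, with the 7 hormone genes *Ins1*, *Ins2*, *Gcg*, *Sst*, *Ppy*, *Pyy* and *Iapp* left out of the total, and as the mean ± SD over 6 libraries unless stated. A 3′ library gives UMIs per transcript molecule, so these levels were not divided by transcript length.

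In β cells the members spanned a wide range, with the most abundant among the accessory subunits and the core subunits in the lower part. *Ndufa2*, a small accessory subunit of the matrix arm, was highest at 454 ± 28.6 CPM. It was followed by *Ndufa4* at 360 ± 72.0, by the membrane-arm subunit *Ndufb9* at 357 ± 43.2 and by the matrix-arm subunit *Ndufv3* at 313 ± 49.7. The SDs of these last genes are as large as the gaps between them, so their order is not resolved.

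The nuclear core subunits, which together hold the flavin and the iron-sulfur clusters of the electron path, sat lower. *Ndufv1*, the NADH-binding flavoprotein, was at 113 ± 4.96 CPM, and *Ndufs8* was the lowest of the 7 at 64.1 ± 8.87. Together the 7 core genes took 10.4% of the members' UMIs in β cells, against 26.4% for the 9 accessory genes of the matrix arm and 52.9% for the 19 of the membrane arm. *Ndufa9*, an accessory subunit near the ubiquinone site, was the lowest accessory gene at 51.4 ± 6.29. *Ndufa4l2* stood apart at 1.85 ± 0.454, from 222 UMIs in all.

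The spread among the 6 β cell libraries also differed between genes. *Ndufs3* varied least, with a coefficient of variation of 3.25%, followed by *Ndufv1* at 4.41% and *Ndufs1* at 6.01%, and all 3 are core subunits. A low spread was not a trait of the core, as *Ndufv2* was at 10.3%, *Ndufs7* at 13.5% and *Ndufs8* at 13.8%. The accessory genes *Ndufa2*, at 6.29%, and *Ndufa10*, at 7.03%, varied less than these. *Ndufb8*, of the membrane arm, reached 22.3% and *Ndufa4* 20.03%.

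**Figure D1:**
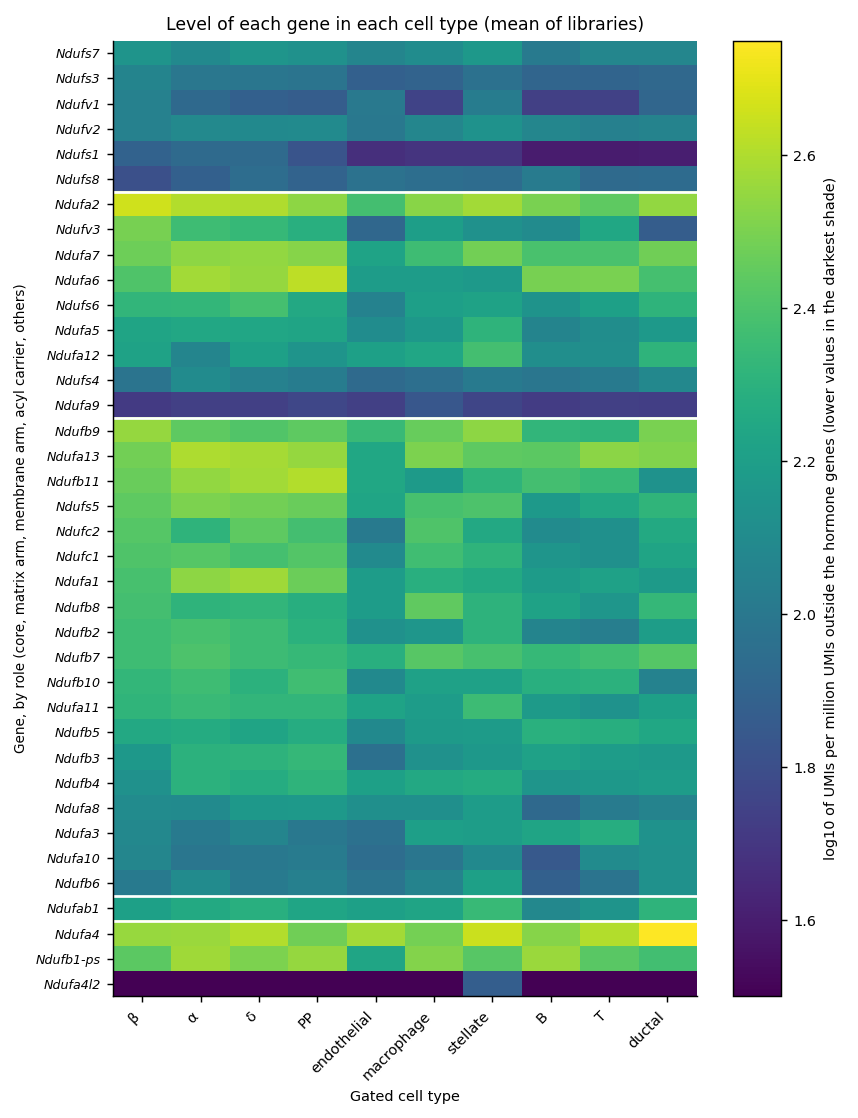
Mean level of the members (CPM outside the hormone genes, over the libraries) in each cell class, as shades on a log scale, with members grouped by role and 1 member not drawn. Most members lie in a narrow band across the classes, whereas *Ndufa4l2* is at 1.85 CPM in β cells and highest in stellate cells, the only class where it is above the darkest shade.

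Summed over the 39 members and scaled to UMIs outside the hormone genes, the level was close among the endocrine classes and lower in endothelial cells. It was 7642 ± 848 CPM in β cells, 8062 ± 781 in α cells, 8067 ± 553 in δ cells, 7761 ± 640 in PP cells, 6612 ± 512 in macrophages and 5286 ± 628 in endothelial cells. The β cell libraries read 6690, 7849 and 7150 in WT and 7324, 9160 and 7681 in KO. The genotypes overlap, and within each same-numbered pair the KO library was the higher one. The members followed the library. Of the 39 members, 30 were highest in library 2 among the WT and 35 in library 2 among the KO β cell libraries, and 33 and 30 were lowest in library 1. Library 2 also had the lowest median UMI count per β cell in each genotype, at 29070 in WT and 21180 in KO, against 31601 to 44150 in the others. The part of depth in this order was not tested. Because the members moved together with the library, they are not independent of each other.

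**Figure D2:**
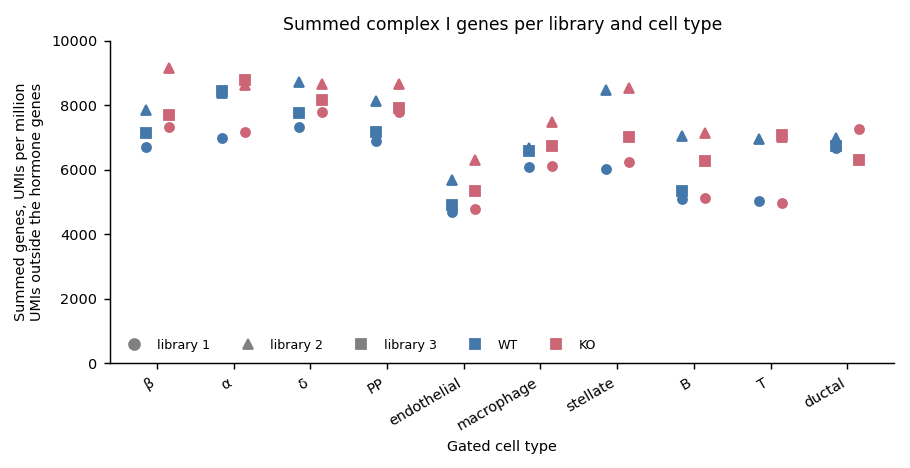
Summed level of the 39 members (CPM outside the hormone genes) in every library of each cell class, WT and KO. In β cells the KO libraries sit at 7324 to 9160 and the WT libraries at 6690 to 7849, and endothelial cells have the lowest mean of the classes compared, at 5286.

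Each of 5 classes was then compared with β cells of the same libraries with edgeR's quasi-likelihood test on UMI sums under TMM scaling, with the library as a term. A gene was called at a Benjamini-Hochberg adjusted p under 0.05 and an absolute log2 fold change over 0.1, adjusted over all genes tested. Since a class can hold more or less of the whole group, the test was repeated with the summed members as the scale, which asks whether a subunit departs from its fellows. Log2 fold changes are class minus β cells, and the ± beside them is the standard error of the fit. They are on another scale than the CPM levels, and the scales part most in macrophages and endothelial cells.

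In α cells 17 members were higher and 9 lower, against 27.0% and 28.2% of all genes, and without KO library 2 the lower ones were 5. In δ cells 12 were higher and 9 lower (25.9% and 27.8% of all genes), and in PP cells 9 were higher and 12 lower (22.6% and 25.7%). These shares are near those of all genes, apart from the larger share of higher members in α cells.

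With the summed members as the scale, 9 members were higher and 12 lower in α cells (17.3% and 33.9% of all genes), 9 and 10 in δ cells (23.3% and 29.3%), and 9 and 12 in PP cells (21.1% and 25.9%). These shares, too, are near those of all genes. All of the comparisons subtract the same β cell libraries, so a value particular to the β cells enters each of them, and calls in several classes are not independent. The members that follow were called by share in each of the 3 comparisons, with log2 fold changes given for α, δ and PP cells in that order. In the membrane arm, *Ndufa1* was at 0.44, 0.54 and 0.25, *Ndufb3* at 0.38, 0.41 and 0.54, *Ndufb11* at 0.21, 0.28 and 0.45, and *Ndufa13* at 0.29, 0.25 and 0.21. Of the same arm, *Ndufb8* was at −0.29, −0.23 and −0.33 and *Ndufb9* at −0.45, −0.56 and −0.38, so its members differed from each other in direction. *Ndufa2*, of the matrix arm, was at −0.26, −0.27 and −0.43, and the core subunit *Ndufs3* was at −0.30, −0.33 and −0.28. *Ndufa6*, *Ndufb4*, *Ndufv1* and *Ndufv3* were called in each as well and are described further on. *Ndufa13* shares its strand with the overlapping gene *Yjefn3*, so its counts are uncertain.

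**Figure D3:**
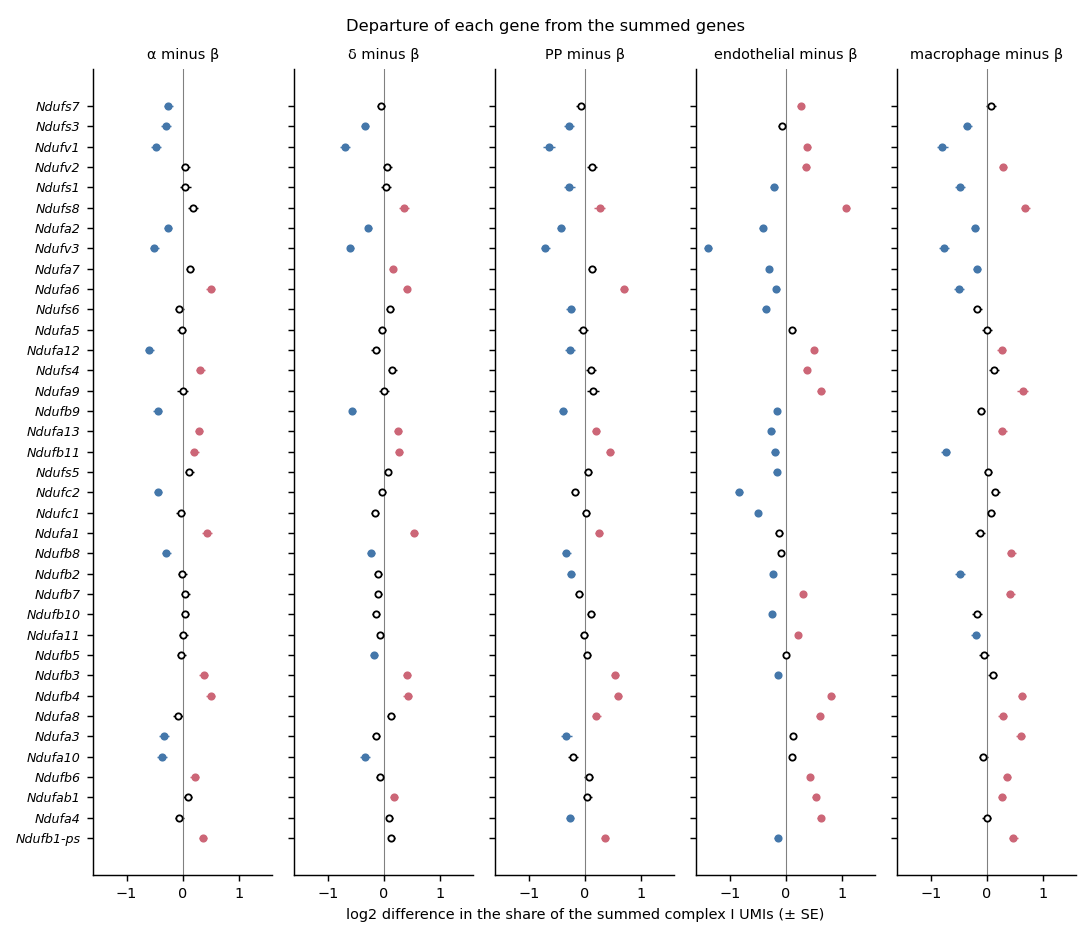
Log2 fold change of a member's share of the summed members, each cell class minus β cells, with the standard error as bars, filled points for members called (red higher, blue lower) and open points for the rest. *Ndufa4l2* and 1 other member are not drawn. *Ndufv3* is negative and *Ndufb4* positive in all 5 classes.

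*Ndufv3* and *Ndufb4* are described first because they were called in 1 direction in all 5 comparisons, both under TMM scaling and by share, which share their β cell libraries. *Ndufv3* (ENSMUSG00000024038, chr17:31520115-31531331, plus strand), an accessory subunit at the tip of the matrix arm, was at 255.5, 325.6 and 276.5 CPM in the WT and at 302.6, 399.0 and 319.4 in the KO β cell libraries. In α cells it lay between 198.9 and 249.9, in δ cells between 179.9 and 258.0, and in PP cells between 162.3 and 261.0. The α cell range lay under every β cell library, and only the highest δ and PP libraries reached above the lowest β cell library. Macrophages, at 132.2 to 199.5, and endothelial cells, at 61.8 to 101.2, lay wholly under it.

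By edgeR's quasi-likelihood test the log2 fold change of *Ndufv3* was −0.37 ± 0.07 in α cells (adjusted p = 1.23e-04), −0.56 ± 0.07 in δ cells (adjusted p = 9.47e-08) and −0.69 ± 0.07 in PP cells (adjusted p = 2.47e-10). It was −1.67 ± 0.07 in endothelial cells (adjusted p = 2.37e-10), the most negative value of any member there, and −0.33 ± 0.08 in macrophages (adjusted p = 0.00311). As a share of the summed members it was lower in all 5 classes too, with differences of −0.51, −0.59, −0.70, −1.40 and −0.76 in the same order.

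*Ndufb4* (ENSMUSG00000022820, chr16:37647170-37654453, minus strand), an accessory subunit of the membrane arm, ran the other way. It was at 110.0, 133.4 and 125.0 CPM in the WT and at 121.2, 180.5 and 140.1 in the KO β cell libraries. In α cells it was at 163.3, 205.8 and 200.9 in WT and at 167.9, 237.8 and 229.5 in KO, and the α cell value exceeded the β cell value within every library. It was at 159.3 to 229.6 in δ cells, 184.4 to 238.8 in PP cells, 140.4 to 184.3 in endothelial cells and 161.9 to 211.7 in macrophages. The log2 fold change was 0.64 ± 0.06 in α cells, 0.46 ± 0.08 in δ cells, 0.61 ± 0.07 in PP cells, 0.54 ± 0.06 in endothelial cells and 1.07 ± 0.08 in macrophages, with edgeR adjusted p from 1.12e-08 in PP cells to 1.77e-05 in δ cells. *Ndufb4* was higher in all 5 classes by its share as well, by 0.50, 0.43, 0.59, 0.81 and 0.64.

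The 250 bases before the RefSeq start of these genes are shown because both genes differ between β cells and all 5 classes, in opposite directions. They are from RefSeq, build GRCm38.p6, at chr17:31519865-31520114 on the plus strand for *Ndufv3* and at chr16:37654369-37654618 on the minus strand for *Ndufb4*. Capitals mark matches to GCGC followed by any 2 bases and GCGC again, the letters searched for NRF1, a factor known for binding promoters of respiratory chain genes.

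Ndufv3: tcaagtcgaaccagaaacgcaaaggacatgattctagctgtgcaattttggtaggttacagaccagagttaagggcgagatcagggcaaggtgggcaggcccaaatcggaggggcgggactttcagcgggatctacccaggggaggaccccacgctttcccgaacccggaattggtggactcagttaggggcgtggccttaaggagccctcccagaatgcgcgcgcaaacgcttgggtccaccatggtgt

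Ndufb4: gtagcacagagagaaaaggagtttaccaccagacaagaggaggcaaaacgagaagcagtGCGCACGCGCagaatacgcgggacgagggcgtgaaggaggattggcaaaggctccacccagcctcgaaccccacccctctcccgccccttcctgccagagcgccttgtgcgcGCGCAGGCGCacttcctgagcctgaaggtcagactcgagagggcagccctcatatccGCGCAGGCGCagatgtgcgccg

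The *Ndufb4* stretch holds 3 such matches, which start 191, 79 and 22 bases before the RefSeq start, and the *Ndufv3* stretch holds none. Those at 79 and 22 bases lie within the gene span given above for *Ndufb4*, which begins further upstream than the RefSeq start. Promoters were found for 33 of the 39 members. *Ndufa2*, *Ndufa4l2*, *Ndufb1-ps*, *Ndufb9* and *Ndufs1* were among those with no entry. On both strands of these windows the NRF1 letters occurred in 8 members (24.2%), namely *Ndufa11*, *Ndufa5*, *Ndufa8*, *Ndufab1*, *Ndufb4*, *Ndufs5*, *Ndufs6* and *Ndufv2*, and in 5.64% of 27025 genes. The letters GCCATNTTG, searched for YY1, occurred in *Ndufb11*, *Ndufb5* and *Ndufs8* (9.09%) and in 1.54% of all genes. The letters CCGGAAGT, searched for ETS factors, occurred in 0 members and in 3.23% of all genes. A match describes letters in this window and says nothing of binding in these cells.

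Other members had other patterns over the classes compared. *Ndufa6* (ENSMUSG00000022450, chr15:82350140-82354322, minus strand), a matrix-arm subunit that holds the acyl carrier protein, was at 222.6, 234.0 and 242.3 CPM in WT and at 252.2, 309.0 and 266.1 in KO β cell libraries. It was at 363.0 to 397.4 in α cells, 338.9 to 376.2 in δ cells and 357.5 to 480.0 in PP cells, and no library of these classes reached down to a β cell library. It was at 134.6 to 177.0 in endothelial cells and 120.8 to 188.7 in macrophages, under every β cell library. Its log2 fold change was 0.64 ± 0.07 in α cells, 0.44 ± 0.06 in δ cells and 0.72 ± 0.07 in PP cells. In endothelial cells it was −0.44 ± 0.07 (edgeR adjusted p = 6.33e-05). In macrophages it was −0.07 ± 0.09 and was not called, although its share of the members was lower (−0.50).

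*Ndufv1* (ENSMUSG00000037916, chr19:4007384-4012806, minus strand) was at 105.3 to 120.6 CPM in β cells. It was lower in the other endocrine classes, at 71.2 to 98.1 in α cells, 59.8 to 93.4 in δ cells and 63.1 to 97.9 in PP cells. Their log2 fold changes were −0.34 ± 0.07, −0.65 ± 0.08 and −0.62 ± 0.09. In macrophages it was at 44.97 to 69.8, with a log2 fold change of −0.37 ± 0.09. In endothelial cells, at 86.9 to 115.6, it was not called under TMM scaling (0.11 ± 0.06, edgeR adjusted p = 0.102), and its share of the members was higher by 0.38. On the scale of UMIs outside the hormone genes it was called lower in all 5 classes, so its direction in endothelial cells depended on the scale. In endothelial cells the share of *Ndufv1* was higher and that of *Ndufv3* lower, although both products belong to the NADH-binding module.

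*Ndufs8* (ENSMUSG00000059734, chr19:3908863-3912774, minus strand), a core iron-sulfur subunit, was higher in all 5 classes, with log2 fold changes of 0.32 ± 0.08 in α cells, 0.40 ± 0.08 in δ cells, 0.28 ± 0.10 in PP cells, 0.81 ± 0.06 in endothelial cells and 1.12 ± 0.08 in macrophages. By its share it was not called in α cells (0.18 ± 0.09, edgeR adjusted p = 0.102). *Ndufa12*, a matrix-arm subunit, was the lowest of the called complex I subunits in α cells, at −0.45 ± 0.07 (edgeR adjusted p = 9.15e-06). It was at 99.8 to 132.3 CPM there and at 155.2 to 198.3 in β cells, without overlap.

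**Figure D4:**
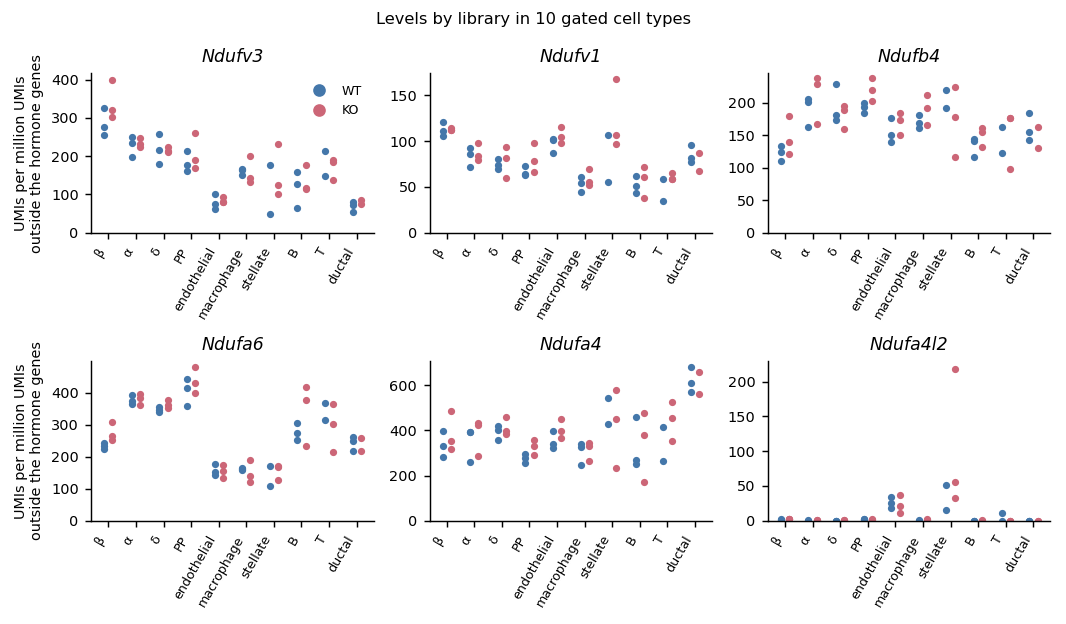
Level of 6 members (CPM outside the hormone genes) in every library of each cell class, WT and KO. *Ndufv3* is highest in β cells, at 255.5 to 399.0, and *Ndufb4* has its lowest mean there, at 135 CPM.

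In endothelial cells 9 members were higher and 23 lower, against 40.0% and 43.9% of all genes. On the scale of UMIs outside the hormone genes these counts were 3 and 30 (32.9% and 52.2% of all genes), and the median of all genes then lay at −0.33 instead of −0.07. The share of lower members was above that of all genes on both scales. After *Ndufv3*, the lowest were *Ndufc2* and *Ndufc1*, small subunits of the membrane arm. *Ndufc2* was at 88.4 to 137.8 CPM in endothelial and 231.3 to 295.1 in β cells, a log2 fold change of −1.10 ± 0.07 (edgeR adjusted p = 3.86e-09), and *Ndufc1* was at −0.77 ± 0.06. Core subunits made up 12.7% of the members' UMIs in endothelial cells and 10.4% in β cells. Scaled to the summed members, 16 were higher and 16 lower (48.2% and 36.4% of all genes), and *Ndufa4* was higher by 0.62 ± 0.07.

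*Ndufa4l2* (ENSMUSG00000040280, chr10:127514967-127517154, plus strand), known as a gene induced by hypoxia, had the largest fold. It was at 34.1, 25.3 and 18.2 CPM in WT and 10.8, 36.7 and 21.8 in KO endothelial libraries. The β cell libraries held 1.43, 1.13 and 2.12 in WT and 2.10, 2.19 and 2.14 in KO, and no endothelial library overlapped them. The log2 fold change was 3.90 ± 0.27 (edgeR adjusted p = 1.61e-08). The 370 endothelial UMIs came from 137 of the 1222 cells, and 22 cells held 182 of them. Of those 137 cells, 89.8% also had a UMI of the stellate marker list, against 19.7% of the other 1085 endothelial cells, and their median UMI count was 17934 against 9406. Both sets had a median of 8 detected endothelial markers. In stellate cells *Ndufa4l2* was at 15.9 to 218.3 CPM in the 5 libraries with at least 10 such cells. The part of endothelial and stellate cells caught under one barcode in this result was not tested, and no doublet caller was run.

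In macrophages the direction depended on the scale, as 30 members were higher and 3 lower under TMM scaling (34.0% and 38.2% of all genes), 7 higher and 21 lower per UMI outside the hormone genes (20.2% and 60.5%), and 13 higher and 11 lower by share (23.5% and 52.6%). The median of all genes was −0.13 under TMM scaling and −0.76 per UMI outside the hormone genes. *Ndufv1*, *Ndufv3* and *Ndufb11* were the 3 called lower under TMM scaling. *Ndufb11*, of the membrane arm, was at −0.30 ± 0.08 and its share was lower (−0.74). *Ndufs8*, *Ndufa9* and *Ndufb4* had the largest called increases, and *Ndufa9* was at 63.0 to 78.7 CPM in macrophages and at 40.9 to 58.5 in β cells, with a log2 fold change of 1.07 ± 0.09 and a share higher by 0.64. Without the KO libraries, the *Ndufv3* difference in macrophages was −0.26 and was not called (edgeR adjusted p = 0.0819), and that of *Ndufb11* was −0.28 (adjusted p = 0.0611).

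Complex I genes outside the nuclear subunits were read from lists. Of the 7 subunits made from mitochondrial DNA, 3 were higher and 4 lower than in β cells in α cells, 1 and 6 in δ cells, 2 and 4 in PP cells, 1 and 6 in endothelial cells and 1 and 5 in macrophages. Of all genes, 27.0% were higher and 28.2% lower in α cells, 25.9% and 27.8% in δ cells, 22.6% and 25.7% in PP cells, 40.0% and 43.9% in endothelial cells and 34.0% and 38.2% in macrophages. *mt-Nd1* and *mt-Nd3* were higher in α cells, by 0.30 and 0.28. *mt-Nd4*, a proton-pumping subunit, had log2 fold changes of −0.47, −0.90, −0.58, −1.53 and −1.18 in these classes. *mt-Nd6*, which is read from the other strand of the mitochondrial genome, was higher in all 5, by 0.38, 0.81, 0.51, 0.87 and 0.33, but scaled to the summed members it was at −0.10 in macrophages and was not called. Cells with over 10% mitochondrial UMIs had been left out, which limits these levels. Of 18 assembly factors, which build the complex and are not part of it, 3 were higher and 3 lower in α cells, 4 and 2 in δ cells, 3 and 1 in PP cells, 3 and 10 in endothelial cells and 5 and 2 in macrophages, to be read against the same shares of all genes. *Nubpl* was at −1.35 in endothelial cells and *Dmac1* at 1.05 in macrophages. *Ndufaf4* was lower in α cells (−0.40), δ cells (−0.49) and PP cells (−0.61), and *Dmac2* was higher there (0.41, 0.36 and 0.86).

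Between genotypes, 38 of the 39 members were tested in β cells. *Ndufa4l2* did not have a UMI in over 15% of the cells of either genotype. By edgeR's quasi-likelihood test 0 members were called, 3 had an unadjusted p under 0.05, and DESeq2 called 0 as well. Of all 9510 genes tested, 1 was called (0.0105%), which was *Ywhaz*, and 481 (5.06%) had an unadjusted p under 0.05. The call of *Ywhaz* was fixed by the choice of KO cells without its UMIs, so apart from it 0 genes were called. With all KO cells kept, 1 gene was called as well, again *Ywhaz*. In counts simulated with the library sizes and dispersion of this test, 10% of genes with a true log2 fold change of 0.3 in size were called. At 0.5 it was 50%, so the lack of calls does not show that small shifts of the members are absent. The simulated counts also held genes changed by 1 and 2, which eases the adjustment for the others. They had 1 dispersion for all genes and no library effect shared between genes, so recovery in the real counts may be lower. The log2 fold change of KO minus WT was above 0 for 34 members and below 0 for 4, with a median of 0.21, while 50.7% of all genes lay above 0 and their median was 0.00. The 4 below 0 were *Ndufb1-ps* at −0.09, the core subunit *Ndufs1* at −0.03, and *Ndufa1* at −0.02 and *Ndufa3* at −0.01 in the membrane arm. The median rested on single libraries. It was 0.07 without KO library 2 and 0.29 without KO library 1.

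Values for the members with the lowest p follow, from KO cells without a *Ywhaz* UMI. *Ndufa6* was at 222.6, 234.0 and 242.3 CPM in WT and at 249.0, 314.2 and 272.5 in KO, a log2 fold change of 0.29 ± 0.10 (edgeR adjusted p = 0.869). *Ndufb9* was at 301.8, 335.6 and 344.3 in WT and at 339.2, 430.4 and 394.5 in KO, a log2 fold change of 0.28 ± 0.11 (edgeR adjusted p = 0.869). *Ndufa12* was at 155.2, 155.4 and 156.2 in WT and at 170.6, 196.7 and 165.1 in KO, a log2 fold change of 0.22 ± 0.09 (edgeR adjusted p = 0.869). For *Ndufa6* and *Ndufa12* every KO library was above every WT library, while *Ndufb9* overlapped, and none passed the adjustment. They were the only members without overlap, 2 of 38, and 3.39% of all genes had their KO libraries above all WT libraries.

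*Ndufb8* had the largest estimate, 0.38, with 181.0, 237.1 and 218.4 CPM in WT and 219.3, 344.4 and 243.2 in KO, and its libraries overlapped. *Ndufa13* was at 264.7, 306.8 and 269.8 in WT and 305.2, 379.2 and 303.2 in KO, a log2 fold change of 0.26. *Ndufa4*, which the study names among its top upregulated β cell genes, was at 282.2, 395.3 and 328.6 CPM in WT and 309.0, 488.2 and 344.2 in KO. The ranges overlap, while KO was above WT in each same-numbered pair. The study describes its single-cell data as an aggregate of 3 mice per genotype, whereas sums per mouse were tested here. Its calls and the lack of calls here are therefore not like for like. The study also measured *Ndufs3*, *Ndufv1*, *Ndufab1*, *Ndufb3* and *Ndufb7* by PCR, in mRNA of whole islets and not of β cells alone. It reports various complex genes as significantly increased in KO islets, and complex proteins as elevated. In these libraries their log2 fold changes were 0.08 for *Ndufs3*, 0.04 for *Ndufv1*, 0.27 for *Ndufab1*, 0.22 for *Ndufb3* and 0.22 for *Ndufb7*. Their adjusted p from edgeR lay between 0.869 and 0.942.

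**Figure D5:**
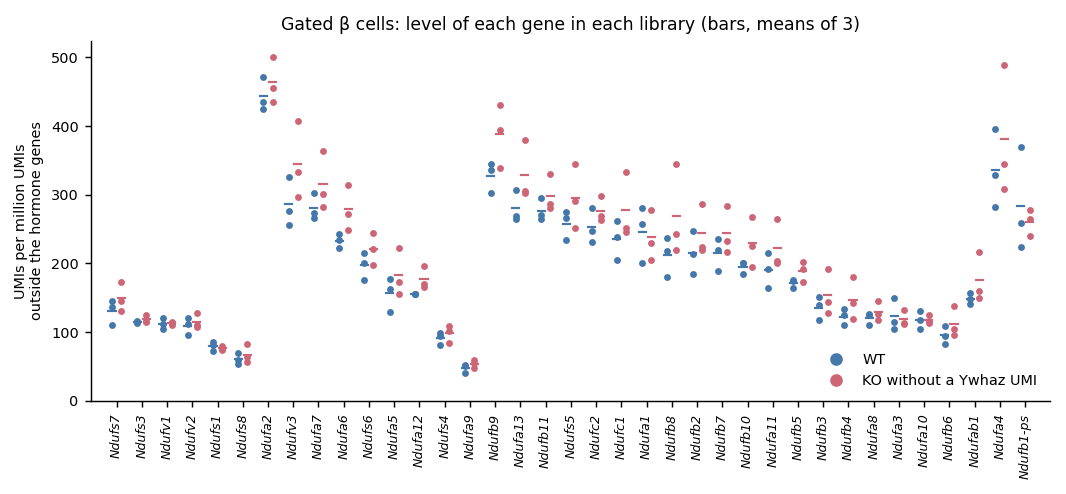
Level of members tested in β cells (CPM outside the hormone genes), with a point for each of the 3 WT libraries (blue) and the 3 KO libraries (red, cells without a *Ywhaz* UMI), bars for the means, and 1 member not drawn. The KO points lie above all WT points for *Ndufa6* and *Ndufa12*, and the ranges overlap for *Ndufb9*.

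Same-numbered libraries of the genotypes deviated together in β cells, a pairing that was read from these same counts. With the library number as a block, 16 of all genes were called (0.168%), each lower in KO, and 0 members. The members with an unadjusted p under 0.05 rose from 3 to 23 of 38, and those of all genes from 5.06% to 11.8%. The lowest adjusted p of a member was then 0.235, that of *Ndufv3*, at 255.5, 325.6 and 276.5 CPM in WT and 296.4, 407.0 and 332.9 in KO, with a log2 fold change of 0.30 ± 0.07 by edgeR. In 28 of the 38 members KO exceeded WT in all 3 same-numbered pairs, against 12.1% of all genes. The same was found for 19 members in PP cells (12.9% of all genes), 17 in endothelial cells (13.8%), 13 in δ cells (12.2%), 10 in macrophages (9.58%), 9 in α cells (13.9%) and 8 in B cells (12.5%), of 38 in each. Outside β and endothelial cells, not every same-numbered pair clearly deviated together, so those counts follow the numbers of the labels alone. Immediate early genes were at 733, 624 and 556 CPM in WT and at 544, 403 and 337 in KO β cells, without overlap, and at 626, 514 and 436 when all KO cells were kept. Their part in these differences was not tested.

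In the other classes 0 members were called either, by edgeR's quasi-likelihood test or by DESeq2, of 38 tested in each. All genes called were 0 in α, δ, endothelial and B cells (0.0%), 1 in PP cells (0.0108%) and 1 in macrophages (0.014%). With the library number as a block they were 11 in δ cells, 5 each in PP cells, macrophages and B cells, 2 in endothelial cells and 0 in α cells. DESeq2 called 3 in endothelial cells, 4 in macrophages and 0 in the others. Without WT library 1 there were 6 in δ cells, and without a filter on low counts 8 in PP cells to 90 in macrophages. No member was called under any of these settings. The members' median log2 fold change was 0.03 in α cells, 0.05 in δ cells, 0.15 in PP cells, 0.14 in endothelial cells, 0.16 in macrophages and 0.16 in B cells, and 25 to 35 of the members lay above 0. Members with an unadjusted p under 0.05 numbered 1 in α cells, 2 in δ cells, 3 in PP cells, 2 in macrophages and 0 in endothelial and B cells. These medians moved with single libraries. Without KO library 2 the median was 0.01 in α and δ cells, 0.01 in endothelial cells, 0.07 in macrophages and −0.09 in B cells. Without WT library 1 it was −0.02 in α cells, −0.01 in δ cells, 0.10 in macrophages and 0.06 in B cells. Without WT library 2 it was 0.05 in α cells, 0.11 in δ cells and 0.32 in B cells. Without KO library 1 it was 0.09 in α and δ cells. Without WT library 3 it was 0.07 in α cells and 0.09 in B cells, and without KO library 3 it was 0.00 in α cells. In PP cells the KO libraries were above all WT libraries in 7 members, against 4.58% of all genes, and in 0 members in α cells (4.43%).

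Whether the genotype difference was particular to β cells was tested as an interaction, with limma-voom and the library as a random block. All KO β cells were kept in it. In none of the 6 other classes was a member called, and 0 of 39 had an unadjusted p under 0.05 in each. The estimate was below 0, a smaller KO to WT fold than in β cells, for 36 of 39 members in α cells (median −0.12) and 28 in δ cells (median −0.14), while 48.7% and 50.8% of all genes lay above 0. It was below 0 for 22 in PP cells, 23 in endothelial cells, 20 in macrophages and 24 in B cells, with medians of −0.01, −0.04, −0.01 and −0.05. These comparisons share the β cell libraries, and the members are not independent. Of all genes, 1 was called in each comparison, *Ywhaz*, which is 0.0071% for α cells, 0.00699% for δ cells, 0.00711% for PP cells, 0.00685% for endothelial cells, 0.00693% for macrophages and 0.0069% for B cells. The lowest unadjusted p was that of *Ndufa6* in α cells, whose KO to WT log2 fold change minus that in β cells was −0.24 ± 0.12 (limma adjusted p = 0.999).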

How the data were processed

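Single-cell libraries (10x 3′ v3.1) of islets from 3 WT and 3 KO mice were analysed. The authors deposited raw UMI counts per gene and barcode for each library; per the labels, reads were processed with Cell Ranger 6.0.2 against mm10, and Seurat is also named. Gene positions were taken from GENCODE vM21 (GRCm38).

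Barcodes with at least 500 genes and at most 10% mitochondrial UMIs were kept. An endocrine cell had at least 5000 UMIs, a hormone share of at least 20% (insulin), 5% (*Gcg*, *Ppy*) or 3% (*Sst*), 2 times the next hormone, and fewer than 3 markers of any other list. Another cell had at least 1000 UMIs, 3 markers of its list and 2 times those of any other list. UMIs were summed per library and class and tested with edgeR 4.0.16 (quasi-likelihood, TMM) or limma 3.58.1 in R 4.3.3, after the scripts were tested on simulated data. Genotype tests kept genes with a UMI in over 15% of cells of either genotype, and class tests used edgeR's own count filter with the library as a block. Genotypes were not compared in stellate, T and ductal cells, which had under 10 cells in a library. With 3 mice per genotype, sums of 51 or more cells gave the α cell values, 815 or more the β cell levels and 610 or more the β cell genotype test. Some sums were much smaller, with 21 PP cells in WT library 1. B cells numbered 11 in KO library 1 and 26 in WT library 3, which limits the values of these classes.

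The replicate numbers of the labels were checked as pairs by correlating deviations from the genotype means over genes. They were 0.506, 0.456 and 0.222 in β cells and 0.383, 0.443 and 0.169 in endothelial cells, so the numbers were taken as pairs there, from the data and not from the labels. The fits with a replicate block thus rest on pairs read from the same counts. In α, δ, PP and B cells and macrophages not every pair exceeded 0.1, although the libraries are the same ones. The α cells gave 0.240, 0.170 and 0.096, so this cut does not separate the classes sharply.

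Genes named in the text were *Ndufa4*, *Ndufa4l2*, the PCR subunits, the 4 members highest and the 4 lowest in β cells, the 5 with the lowest genotype p, and the 3 highest and 3 lowest called members of each comparison; *Ndufb8* and other members given with values, and the mitochondrial genes and assembly factors named, were chosen after their values were seen. The values of 1 member are not reported here, although it is in the counts and sums. The members and lists were chosen with earlier results of these data known. Alternatives were DESeq2 1.42.0, other scalings, other gates, no filter, the replicate block and each library left out.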

Additional observations from a re-analysis of the deposited data

How the results depend on the processing

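Single genes were checked for the 5 lowest genotype p in β cells and the 3 highest and 3 lowest called members of each class comparison. Counting each gene under each alternative, 754 values kept their direction and their side of the threshold, 3 kept only the direction and 0 reversed. The 3 were *Ndufa4l2* in δ cells when the hormone had to be 4 times the next (−1.53), and *Ndufv3* (−0.26) and *Ndufb11* (−0.28) in macrophages with WT libraries only. Because these members were picked for extreme values, a reversal was unlikely from the start. Other values given in the text were not in this check, and that of *Ndufv1* in endothelial cells did change direction with the scale. Of the counts, 324 stayed within 1.5 times. All genes called between genotypes in β cells, 1 at first, were 8 by DESeq2, 11 without a filter on low counts, 16 with the replicate block, and 1 to 2 when single libraries were left out, the 2 without WT library 2. The replicate block changed no other call of a member. With WT libraries only, members called lower fell to 3 in α cells, 5 in δ cells and 1 in macrophages, and by share the higher ones were 5 in δ cells, 5 in PP cells and 8 in macrophages and the lower ones 10 in endothelial cells, fits with fewer samples. Leaving out single libraries gave 5 to 10 members called lower in α cells, the 5 without KO library 2. Without a filter 7 members were higher in δ cells and 5 lower in macrophages. Per UMI outside the hormone genes, 3 were higher in endothelial cells, and 7 higher and 21 lower in macrophages, where the median of all genes moved from −0.13 to −0.76. The cause of the other moves was not tested. Depth limits *Ndufa4l2*, which had 4 UMIs in α cells, 2 in δ cells and 6 in PP cells.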

Other observations

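In the classes that were not compared with β cells, several members had levels unlike those of β cells, given here as levels over the libraries with at least 10 cells. *Ndufa4* was highest in ductal cells at 616 ± 52.3 CPM outside the hormone genes (n = 5), against 360 ± 72.0 in β cells. *Ndufv3* was lowest in ductal cells at 73.7 ± 12.0, about the level of endothelial cells, 82.3 ± 13.9. *Ndufs1*, the largest core subunit, was at 39.2 ± 7.94 in T cells (n = 5), 39.3 ± 4.16 in B cells and 40.3 ± 6.04 in ductal cells, against 78.2 ± 4.70 in β cells. *Ndufa6* was at 310.4 ± 72.7 in B cells and 313.5 ± 62.2 in T cells, between its means in β cells (254) and PP cells (421). *Ndufa12* was highest in stellate cells at 237.1 ± 25.0 (n = 5). These differences were not tested. Insulin made up 1.77% to 8.18% of B cell UMIs, and the median B cell held 4963 UMIs. The part of free RNA in the lymphocyte levels was not tested.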
